A study of Arabidopsis thaliana with 25 samples.

Results

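The 38 genes described here are nuclear genes of Arabidopsis thaliana that encode subunits of the photosynthetic electron transport chain, out of 53986 entries in the count table. They were taken by their gene identifiers, with the antenna genes left out, by a rule that uses no measured value. The choice was made with earlier results of these data known. All 38 were found, and all 38 passed the filter on low counts that left 20615 genes. The 5 oxygen-evolving subunits are PSBO1 (AT5G66570), PSBO2 (AT3G50820), PSBP1 (AT1G06680), PSBQ1 (AT4G21280) and PSBQ2 (AT4G05180). The 7 other photosystem II proteins are PSBR (AT1G79040), PSBW (AT2G30570), PSBX (AT2G06520), PSBY (AT1G67740), PSBTN (AT3G21055), PSB27 (AT1G03600) and PSB28 (AT4G28660). Grouped here with photosystem I are 13 genes. They include PSAD1 (AT4G02770), PSAD2 (AT1G03130), PSAE1 (AT4G28750), PSAE2 (AT2G20260), PSAF (AT1G31330), PSAG (AT1G55670), PSAH1 (AT3G16140) and PSAH2 (AT1G52230). The others are PSAK (AT1G30380), PSAL (AT4G12800), PSAN (AT5G64040), PSAO (AT1G08380) and PSAP (AT2G46820). The 7 electron carriers are PETC (AT4G03280), PETE1 (AT1G76100), PETE2 (AT1G20340), FD1 (AT1G10960), FD2 (AT1G60950), FNR1 (AT5G66190) and FNR2 (AT1G20020). Plastid ATP synthase is represented by ATPC1 (AT4G04640), ATPD (AT4G09650) and ATPG (AT4G32260), and cyclic electron flow by PGR5 (AT2G05620), PGRL1A (AT4G22890) and PGRL1B (AT4G11960).

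In the thylakoid membrane, photosystem II takes electrons from water at its oxygen-evolving complex and passes them through the cytochrome b6f complex and plastocyanin to photosystem I. Photosystem I hands them to ferredoxin, and ferredoxin-NADP reductase makes NADPH from them, while the proton gradient drives ATP synthase. The reaction centre proteins are made in the plastid, and the subunits encoded in the nucleus are imported, so greening of a dark-grown cotyledon draws on both genomes.

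The cotyledons came from wild-type seedlings that had spent 5 days either in darkness (group D) or under long days (group L). Further dark-grown seedlings were moved to continuous light for 1, 6 or 24 h (groups 1h, 6h and 24h). Each of the 5 groups had 5 libraries, made from acetone-fixed, dissected cotyledons to which Drosophila cells were added before RNA extraction. All plants carried the same genotype, no dark group was kept for as long as the light-treated groups, and L differed from 24h in age and in day length as well as in its history of light. The labels do not say that replicates were separate cultures. The p-values therefore rest on the spread between libraries, which may be technical.

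Libraries held 17901840 to 24085995 counts, of which 0.184% to 4.03% were Drosophila counts. Levels are given as spike-scaled CPM, CPM computed with library sizes taken from the Drosophila counts, and fold changes come from edgeR's quasi-likelihood test on the same scale. In whole tissue, fewer cells of a type and less RNA per cell cannot be told apart, and a change in tissue per added Drosophila cell would move all genes alike. The median log2 fold change of all genes tested was 0.03 in 1h, 0.56 in 6h, 1.19 in 24h and 2.35 in L against D, and TMM scaling, which sets that median near 0, is given as a second scale. Replicates 1 and 2 stood apart from replicates 3 to 5 in every group by their plastid share of Arabidopsis counts (median 2.12%, from 0.549% to 4.09%, against 7.76%, from 3.83% to 16.0%). The D libraries of replicates 1 and 2 were also the lowest of their group in 37 of the 38 genes. All nuclear-encoded counts together were also lowest there, at 23.1 and 32.4 per Drosophila count, against 58.5 to 74.7 in replicates 3 to 5. The share of all genes with that order was not counted. Some results are given for both sets of replicates, and others that are not may differ between the sets as well. Of the markers of labelled tissue, the mesophyll genes RBCS1A, CA1 and RCA summed to 2266 to 13707 spike-scaled CPM in D and to 134556 to 278405 in L. The 4 root markers summed to 0.883 to 9.70 in L and to at most 1.37 in any library of the other groups. The 3 seed storage markers summed to at most 3.23 in any library.

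Upstream sequence is shown for 3 pairs of paralogs whose light responses are compared below, PSBQ1 and PSBQ2, PSAH1 and PSAH2, and PGRL1A and PGRL1B. Each line gives the 250 bases before the annotated gene start, 5′ to 3′, in the TAIR10.1 assembly from RefSeq, and capitals mark complete matches on either strand to CACGTG (the G-box), CCAATC or GATAAG.
PSBQ1, chr4:11334102-11334351, plus strand: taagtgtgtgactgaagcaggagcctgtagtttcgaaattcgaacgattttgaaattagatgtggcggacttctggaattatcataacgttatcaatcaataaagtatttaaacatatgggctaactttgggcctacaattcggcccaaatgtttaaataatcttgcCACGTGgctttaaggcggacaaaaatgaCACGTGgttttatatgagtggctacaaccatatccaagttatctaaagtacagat
PSBQ2, chr4:2673244-2673493, minus strand: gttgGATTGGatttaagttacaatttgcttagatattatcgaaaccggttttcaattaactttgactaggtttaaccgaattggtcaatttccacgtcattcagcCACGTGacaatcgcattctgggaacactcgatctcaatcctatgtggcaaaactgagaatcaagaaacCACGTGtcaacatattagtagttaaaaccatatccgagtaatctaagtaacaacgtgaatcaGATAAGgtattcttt
PSAH1, chr3:5469595-5469844, minus strand: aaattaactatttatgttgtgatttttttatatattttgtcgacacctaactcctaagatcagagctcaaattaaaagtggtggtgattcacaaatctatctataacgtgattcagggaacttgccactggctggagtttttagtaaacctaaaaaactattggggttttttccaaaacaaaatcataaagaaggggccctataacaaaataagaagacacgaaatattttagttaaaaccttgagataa
PSAH2, chr1:19454548-19454797, plus strand: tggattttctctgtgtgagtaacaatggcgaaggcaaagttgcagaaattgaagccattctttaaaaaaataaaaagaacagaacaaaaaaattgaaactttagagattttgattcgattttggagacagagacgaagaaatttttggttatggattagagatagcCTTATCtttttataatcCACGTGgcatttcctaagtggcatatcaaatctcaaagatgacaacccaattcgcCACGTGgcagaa
PGRL1A, chr4:12006736-12006985, plus strand: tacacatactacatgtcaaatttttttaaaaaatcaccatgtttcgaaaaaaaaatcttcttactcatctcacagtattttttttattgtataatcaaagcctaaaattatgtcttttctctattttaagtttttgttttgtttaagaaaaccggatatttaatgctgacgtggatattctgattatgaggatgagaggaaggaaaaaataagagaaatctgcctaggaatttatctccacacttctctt
PGRL1B, chr4:7177889-7178138, minus strand: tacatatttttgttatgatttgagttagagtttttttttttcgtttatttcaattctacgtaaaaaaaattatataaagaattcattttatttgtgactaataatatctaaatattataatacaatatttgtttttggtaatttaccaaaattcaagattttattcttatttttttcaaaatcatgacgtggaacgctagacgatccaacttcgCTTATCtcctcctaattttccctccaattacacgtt
PSBQ1 and PSBQ2 each held 2 G-boxes in this stretch, PSAH2 held 2 and PSAH1 none, and neither PGRL1 gene held any. PSAH1 had a G-box in the 50 bases after its start. Over the window of 300 bases that also takes in the 50 bases after the start, CACGTG occurred in 13 of the 38 genes (34.2%) and in 7.68% of 27443 gene windows. GATAAG, on either strand, occurred in 20 of the 38 (52.6%) and in 14.6% of all windows, and CCAATC in 8 (21.1%) and 12.3%. The core ACGT, which every CACGTG contains, was found in 24 (63.2%) and 49.9%. Among the 38 windows, CACGTG or GATAAG was found in 28, both in 5 and neither in 10, combinations not counted over all windows. All of these are matches of letters in a window and were not tested.

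In darkness the genes were already transcribed. Their 38 levels summed to 3588 to 22116 spike-scaled CPM and to 2.92 ± 0.78% (SD, n = 5) of nuclear-encoded counts. That share was 3.98 ± 0.83% in 1h, 8.83 ± 0.89% in 6h, 10.2 ± 1.18% in 24h and 11.2 ± 2.15% in L. It needs no spike-in, and the ranges of D (1.73% to 3.69%) and 6h (7.66% to 9.63%) lay apart. Within replicates 1 and 2 the mean share was 2.15% in D and 7.88% in 6h, and within replicates 3 to 5 it was 3.44% and 9.47%. Per kb of transcript the highest mean level in D was that of PSBR, a small protein of photosystem II near the oxygen-evolving complex, at 1694 ± 957 spike-scaled CPM per kb. PGRL1B was the lowest, at 8.41 ± 4.47. In L, PSBR reached 41090 ± 10977 spike-scaled CPM per kb and PSBX, another small photosystem II subunit, 38160 ± 13801, and these were the 2 highest means, less than their SDs apart. PGRL1B was again the lowest, at 60.0 ± 21.8.

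**Figure D1:**
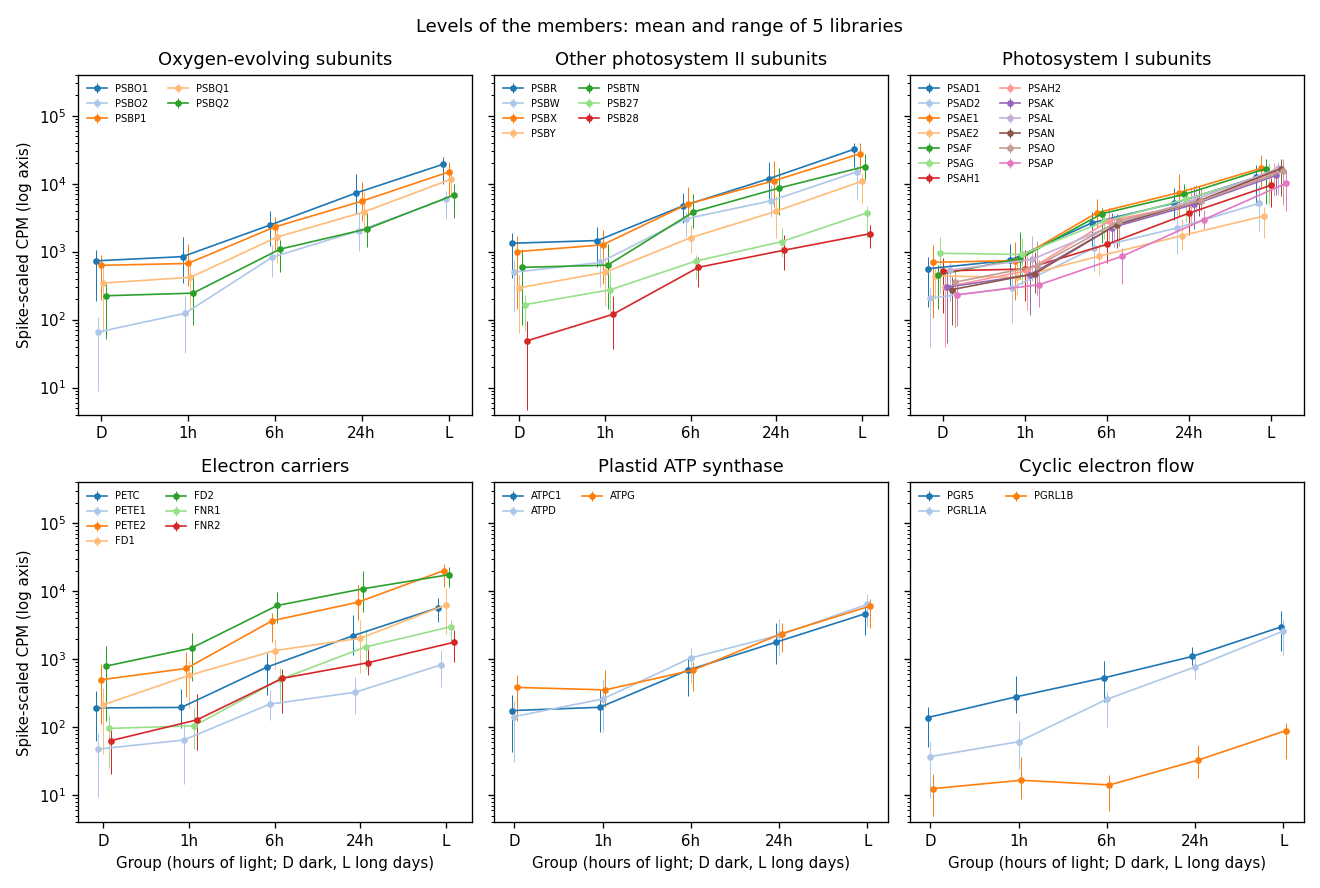
Spike-scaled CPM (log axis) of the 38 genes in each group, in 6 panels by role; points are means and bars the range of 5 libraries. Most lines climb between 1h and 6h and again to L, while PGRL1B in the cyclic flow panel lies at 5.83 to 19.8 in 6h.

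After 1 h of light no gene of the 38 passed the test against D in either direction, where 3.06% of all genes tested were called higher and 0.994% lower. At an unadjusted p under 0.05, 3 were higher and 0 lower. The share of all genes at that limit was not counted, so the 3 cannot be set beside it. The libraries of the 2 groups overlapped for all 38, while 2.3% of all genes lay wholly higher in 1h. The median log2 fold change was 0.49, and 35 of the 38 estimates were above 0. FD1, a leaf ferredoxin, measured 40.8, 89.8, 249.9, 372 and 319 spike-scaled CPM in D and 191, 903, 426, 953 and 429 in 1h, in the order of replicates. All but 1 of its 1h libraries were higher than every D library, and the log2 fold change was 1.44 ± 0.58 (SE, adjusted p = 0.237). PSB28, an assembly factor of photosystem II, measured 4.71, 18, 35.8, 95.6 and 89.8 in D and 36.4, 184, 69.3, 223 and 84.4 in 1h. Its groups overlapped, and its log2 fold change was 1.29 ± 0.57 (adjusted p = 0.323). FD1 and PSB28 were picked out here after their values were seen. The 3 estimates below 0 belonged to PSAE2 and PSAG, subunits of photosystem I, and ATPG (PDE334 in the reference annotation), a subunit of the membrane part of ATP synthase. Their mean levels were 439.6 and 419.8 spike-scaled CPM in D and 1h for PSAE2, 945.9 and 907.7 for PSAG, and 385.5 and 355.02 for ATPG. Under TMM scaling the estimate for PSAG was above 0, at 0.07 ± 0.29 (adjusted p = 0.942), and those for PSAE2 (-0.10) and ATPG (-0.06) were below it.

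The result at 1 h depended on the scale and on the replicates. Under TMM scaling 12 of the 38 rose, beside 8.94% of all genes called higher and 5.21% lower. They were PSBO2, PSBY, PSB27, PSB28, PSAH2, PSAN, FD1, FD2, FNR2, ATPD, PGR5 and PGRL1A. On that scale FD1 had the largest estimate, at 1.57 ± 0.33 (adjusted p = 0.00163), followed by PSB28 at 1.47 ± 0.31 (adjusted p = 0.0015). DESeq2 called 14 with median-ratio size factors, beside 9.71% of all genes called higher, and 0 with Drosophila size factors, beside 4.46%. In replicates 1 and 2 alone, 9 rose, beside 8.31% of all genes, and the median log2 fold change was 1.93, where that of all genes was 1.32. In replicates 3 to 5 none passed, beside 1.22% of all genes called higher, and the medians were -0.14 for the 38 and -0.58 for all genes.

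By 6 h, 34 of the 38 genes had risen against D and none had fallen, beside 21.4% of all genes called higher and 5.05% lower. Their median log2 fold change was 2.37, where that of all genes was 0.56. The libraries of the 2 groups did not overlap for 30 of the 38, as for 10.6% of all genes in that direction. Under TMM scaling 35 rose, beside 26.9% of all genes called higher and 25.9% lower, with a median of 2.00 for the 38. In replicates 1 and 2 alone 36 rose, beside 39.8% of all genes, and in replicates 3 to 5 alone 27, beside 8.54%.

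All 5 oxygen-evolving subunits had risen by 6 h. PSBO2, the second copy of the protein that stabilises the manganese cluster, measured 8.75, 34.0, 68.5, 108 and 109 spike-scaled CPM in D and 646, 763, 424, 1254 and 1046 in 6h. Its 6h libraries were all several times higher than the highest D library, and its log2 fold change of 3.66 ± 0.61 (adjusted p = 2.4e-05) was the largest of the 38. PSBO1, the more abundant copy, measured 189, 406, 991, 1011 and 1061 in D and 1637, 2283, 1213, 3961 and 3143 in 6h. The groups were apart and the log2 fold change was 1.74 ± 0.52 (adjusted p = 0.0116), but in replicates 3 to 5 alone it was 1.44 (adjusted p = 0.0523). Among the other photosystem II proteins, all 7 of which had risen, PSB28 changed most, with 531, 609, 301, 839 and 659 spike-scaled CPM in 6h. Its log2 fold change was 3.59 ± 0.62 (adjusted p = 4.3e-05). PSBR, with 4714 ± 1724 in 6h and 1328 ± 751 in D, had the lowest of the 7, at 1.83 ± 0.50 (adjusted p = 0.00601). PSBX went from 999 ± 727 to 5056 ± 2645, a log2 fold change of 2.34 ± 0.59 (adjusted p = 0.00306). The other oxygen-evolving genes, PSBP1, PSBQ1 and PSBQ2, rose by 1.88, 2.25 and 2.28 on the log2 scale. PSBW, PSBY and PSBTN, small photosystem II proteins, rose by 2.61, 2.45 and 2.71, and PSB27, an assembly factor, by 2.13.

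Of the 13 genes grouped with photosystem I, 11 had risen by 6 h. PSAH2, a subunit at the side of photosystem I where the mobile antenna docks, measured 39.2, 97.9, 267, 537 and 557 spike-scaled CPM in D and 2192, 2384, 1268, 4594 and 3754 in 6h. The groups lay apart, and the log2 fold change was 3.24 ± 0.63 (adjusted p = 0.00019). Its paralog PSAH1 measured 125, 241, 650.1, 806 and 789 in D and 888, 1184, 673, 2047 and 1602 in 6h. These groups overlapped, and the log2 fold change of 1.29 ± 0.52 did not pass (adjusted p = 0.0629). Without 6h replicate 3, D replicate 4 or D replicate 5 it did pass, at 1.45, 1.5 and 1.49, as it did under TMM scaling at 0.86. PSAE2, 1 of the 2 genes for a stromal subunit at the ferredoxin docking site, measured 204, 317, 597, 532 and 548 in D and 912, 764, 460, 1296 and 875 in 6h. Its groups overlapped and it had the lowest estimate of the 13, 0.97 ± 0.46 (adjusted p = 0.111). The paralog PSAE1 had risen, by 2.42 ± 0.59 on the log2 scale (adjusted p = 0.0024). PSAG, which had risen at 1.56 ± 0.52 (adjusted p = 0.0232), no longer passed without D replicate 1 (1.31), D replicate 2 (1.39), 6h replicate 4 (1.45) or 6h replicate 5 (1.44), nor in replicates 3 to 5 alone (1.13). The other photosystem I genes that rose had log2 fold changes from 1.88 for PSAP to 3.17 for PSAN, with PSAF, which binds plastocyanin, at 2.99 and PSAL, a subunit next to PSAH, at 2.22.

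Each of the 7 electron carriers had risen by 6 h. FNR2, a leaf ferredoxin-NADP reductase, measured 20.2, 46.8, 49.0, 105 and 97.1 spike-scaled CPM in D and 722, 661, 159.7, 611 and 475 in 6h. All 6h libraries were above all D libraries, and its log2 fold change of 3.05 ± 0.55 (adjusted p = 7.5e-05) was the largest of the carriers. PETC, the Rieske protein of the cytochrome b6f complex, had the smallest, at 2.00 ± 0.51 (adjusted p = 0.00379), and at 1.51 (adjusted p = 0.059) it did not pass in replicates 3 to 5 alone. The plastocyanin genes PETE1 and PETE2 rose by 2.19 ± 0.56 and 2.89 ± 0.54, and the ferredoxin genes FD1 and FD2 by 2.65 ± 0.61 and 2.96 ± 0.58. Of the ATP synthase genes, ATPD, the delta subunit, rose from 144 ± 95 to 1048 ± 376 spike-scaled CPM (log2 fold change 2.87 ± 0.56, adjusted p = 0.000221). ATPC1, the gamma subunit of its stalk, rose by 1.98 ± 0.53 (adjusted p = 0.0055). ATPG, at 122 to 587 in D and 347 to 912 in 6h, had an estimate of 0.86 ± 0.47 (adjusted p = 0.174). The 2 PGRL1 genes of cyclic electron flow gave unlike values. PGRL1A, which forms the ferredoxin-plastoquinone route together with PGR5, measured 8.98, 19.4, 32.1, 62.1 and 62.5 in D and 253, 301, 101, 325 and 309.5 in 6h. Its groups did not overlap and the log2 fold change was 2.80 ± 0.55 (adjusted p = 0.000218). PGR5 rose by 1.94 ± 0.51 (adjusted p = 0.0043). PGRL1B, the near copy of PGRL1A, measured 4.94, 7.79, 11.2, 20.6 and 18.1 in D and 12.3, 15.7, 5.83, 19.8 and 17.2 in 6h. Those 2 groups covered the same range, the estimate was 0.18 ± 0.46 (adjusted p = 0.804), and under TMM scaling it was -0.38 ± 0.17 (adjusted p = 0.0669).

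**Figure D2:**
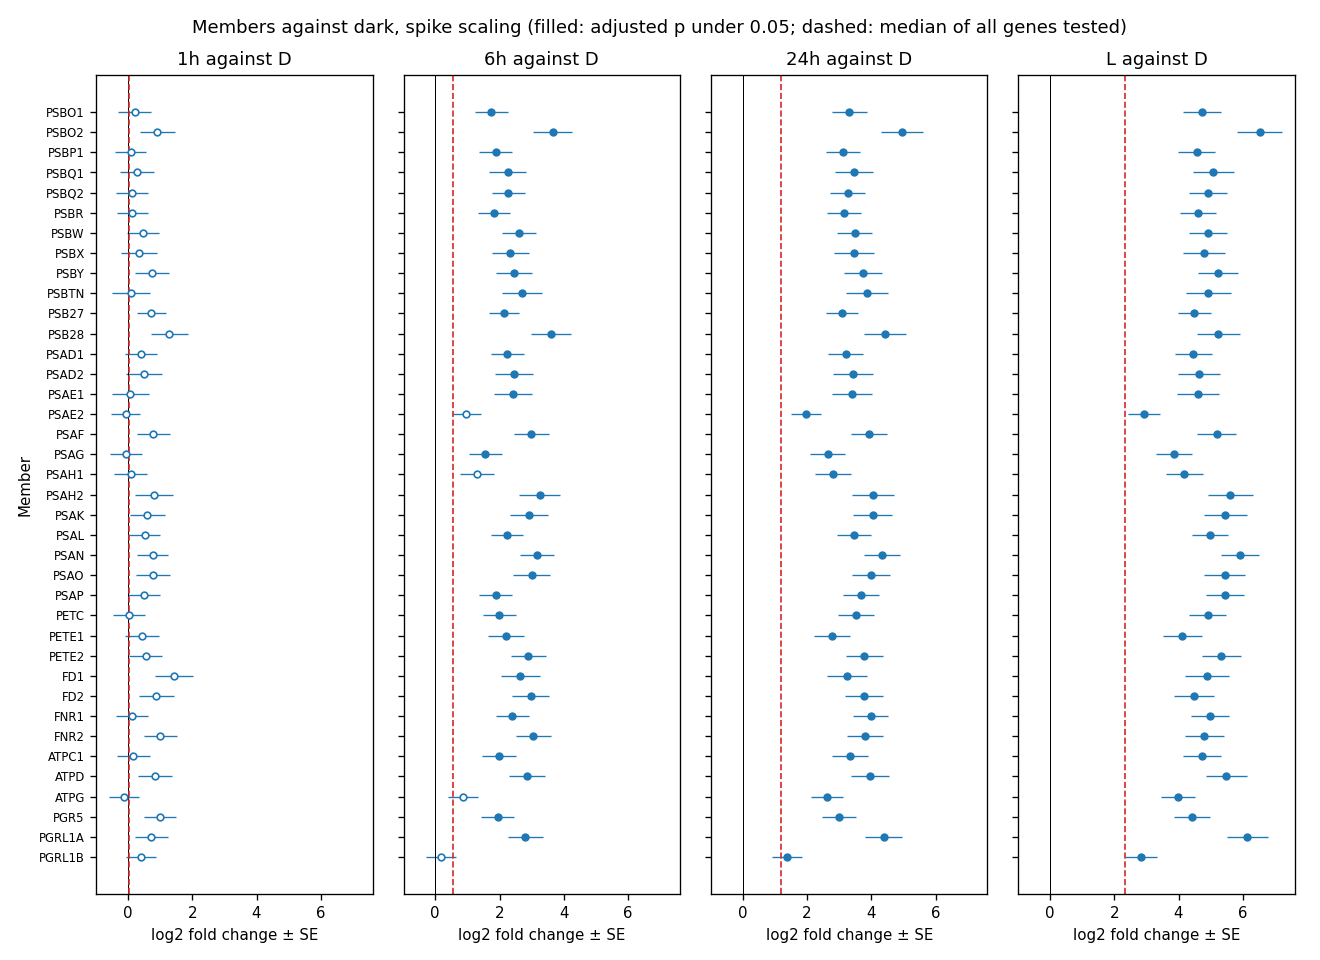
Log2 fold change with its SE (x axis) of each of the 38 genes against D, with a panel for each of 1h, 6h, 24h and L; filled points passed at an adjusted p under 0.05 and the dashed line is the median of all genes tested. No point is filled at 1h, 34 are filled at 6h and all 38 at 24h and in L, with PGRL1B closest to the median line at 24h and in L.

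After 24 h all 38 genes had risen against D, beside 50.3% of all genes called higher and 3.76% lower. The median log2 fold change was 3.48, against 1.19 for all genes, and the libraries did not overlap for 37 of the 38 (35.7% of all genes). Under TMM scaling 37 rose, beside 27% of all genes called higher and 27.8% lower, and the median was 2.31. PSBO2 again had the largest estimate, at 4.96 ± 0.65 (adjusted p = 1.69e-07). It measured 1009, 1773, 1941, 3735 and 1734 spike-scaled CPM in 24h, all far above its highest D library. PSB28 (4.43 ± 0.65), PGRL1A (4.38 ± 0.59) and PSAN, a lumenal subunit of photosystem I that helps plastocyanin to bind (4.33 ± 0.56), were close behind. The smallest were PGRL1B at 1.39 ± 0.47 (adjusted p = 0.0133) and PSAE2 at 1.97 ± 0.47 (adjusted p = 0.000862). PGRL1B measured 17.8, 31.1, 27.0, 54.0 and 33.7 in 24h, and its lowest library overlapped the D range. It no longer passed without 24h replicate 4 (1.13, adjusted p = 0.0548), in replicates 3 to 5 alone (1.20, adjusted p = 0.0811), or under TMM scaling (0.13, adjusted p = 0.534).

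In cotyledons grown in long days all 38 genes were higher than in D, beside 84.9% of all genes called higher and 1.96% lower. No D library overlapped an L library for any of the 38, as for 68% of all genes. The median log2 fold change was 4.89, against 2.35 for all genes. Under TMM scaling 37 were higher, beside 28.6% of all genes called higher and 28.1% lower, with a median of 2.59. Summed by role, the oxygen-evolving genes held 512 to 2868 spike-scaled CPM in D and 29324 to 74239 in L, and the photosystem I genes 1523 to 9015 and 67910.0 to 217133. The electron carriers held 395 to 3463 in D and 33392 to 70870.5 in L, the ATP synthase genes 196 to 1083 and 8243 to 22312, and the cyclic flow genes 64.6 to 282 and 2486 to 9221. PSBO2 led with 6.52 ± 0.70 (adjusted p = 1.1e-09), from 65.6 ± 44.4 to 6019 ± 1862 spike-scaled CPM. PGRL1A followed with 6.14 ± 0.64 (adjusted p = 6.56e-10), at 3758, 3891, 1145, 2203 and 2026 in L, where the first 2 libraries were the highest. The smallest changes were those of PGRL1B, 2.84 ± 0.49 (adjusted p = 5.2e-06), and PSAE2, 2.92 ± 0.49 (adjusted p = 2.93e-06). PSAE2 did not pass under TMM scaling, at 0.49 ± 0.25 (adjusted p = 0.102). The guard cell markers FAMA, KAT1 and MYB60 summed to 15.1 to 68.1 spike-scaled CPM in D and 121 to 298 in L, and the phloem markers SUC2 and APL to 14.1 to 42.2 and 84.5 to 332. The shoot meristem markers STM, WUS and CLV3 went the other way, with sums of 1.59 to 7.69 in D and 0.353 to 2.05 in L, and the epidermis markers ATML1, PDF1 and FDH summed to 73.1 to 356 and 421 to 1366. These marker sums are on the spike scale, where the median log2 fold change of all genes was 2.35, and were not corrected for that shift. The part of cell type make-up in the changes of the 38 genes was not tested.

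Over all replicates, the largest median change between neighbouring groups was from 1 h to 6 h. In replicates 1 and 2 alone it was not the largest, at 1.72 after 1.93 from D to 1h and before 1.98 from 24h to L. The medians of all genes in those replicates were 0.24 from 1h to 6h, 1.32 from D to 1h and 1.69 from 24h to L. From 1 h to 6 h 31 of the 38 rose and none fell, beside 13.6% of all genes called higher and 3.12% lower, and the median log2 fold change was 1.97, against 0.50 for all genes. The groups were apart for 17 of the 38, and for 5.27% of all genes. PSBO2 moved most, by 2.74 ± 0.58 (adjusted p = 0.00139), and PSAH2 (2.43 ± 0.61), PETE2 (2.33 ± 0.53) and PGRL1A (2.08 ± 0.53) rose too. The 7 that did not pass were PSAE2, PSAH1, PSAP, FD1, ATPG, PGR5 and PGRL1B. With replicate number as a block 34 rose, beside 24% of all genes, among them PSAE2 (1.06) and PSAH1 (1.25). In replicates 1 and 2 alone 1 gene passed, beside 3.02% of all genes called higher, and in replicates 3 to 5 alone 32, beside 11.3%. Under TMM scaling 34 rose, beside 21.2% of all genes called higher and 23.3% lower, and PGRL1B fell, at -0.77 ± 0.17 (adjusted p = 0.00103). In spike-scaled levels PGRL1B measured 11.2, 37.0, 8.86, 12.3 and 13.6 in 1h, where replicate 2 stood far above the others, and its estimate did not pass, at -0.23. That estimate was 0.30 without 1h replicate 2 and 0.30 in replicates 3 to 5 alone.

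From 6 h to 24 h 3 of the 38 rose, beside 6.82% of all genes called higher and 0.412% lower. The median log2 fold change was 1.12, against 0.65 for all genes. The 3 were PSAP, also known as CURT1B and involved in bending thylakoid membranes (1.80 ± 0.51, adjusted p = 0.027), FNR1 (1.59 ± 0.50, adjusted p = 0.0462) and ATPG (1.77 ± 0.48, adjusted p = 0.0191). PSAP and FNR1 are named because they passed. PSAP was counted here with the photosystem I genes. ATPG measured 662, 730.02, 347, 912 and 838 spike-scaled CPM in 6h and 1288, 2199, 2342, 3390 and 2709 in 24h, so the 2 groups did not overlap, as for 6 of the 38 and 12.1% of all genes. With replicate number as a block 13 rose, beside 18.7% of all genes. The count fell to 0 without 6h replicate 3 or 24h replicate 4, beside 2.8% and 3.17% of all genes called higher. It was 1 without 6h replicate 1, 24h replicate 2 or 6h replicate 5 (3.63%, 4.22% and 4.77% of all genes), 5 without 6h replicate 4 (7.2%) and 7 without 24h replicate 1 (9.32%). ATPG itself did not pass without 6h replicate 1 (1.76), 6h replicate 3 (1.60) or 24h replicate 4 (1.61). Under TMM scaling 9 rose, beside 9.54% of all genes called higher and 7.57% lower, and ATPG again had the smallest p, at 1.07 ± 0.17 (adjusted p = 0.000123).

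In L, 30 of the 38 were higher than in 24h, beside 52.5% of all genes called higher and 0.514% lower. Their median log2 fold change was 1.41, and that of all genes 1.18. Under TMM scaling none of the 38 passed in either direction, beside 5.98% of all genes called higher and 4.65% lower, and their median was 0.30. The groups were apart for 1 of the 38, as for 19% of all genes. In replicates 1 and 2 alone 24 were higher, beside 44.7% of all genes, and in replicates 3 to 5 alone none, beside 1.53%. The count was 2 without 24h replicate 1 and 3 without L replicate 2, beside 16.4% and 17.9% of all genes called higher, and 8 without 24h replicate 3, beside 23.3%. It was 16 without L replicate 1 or 24h replicate 5 (28.2% and 35.1% of all genes), 17 without L replicate 4 (37.2%) and 18 without 24h replicate 2 (41.3%). The 8 that did not pass were PSBTN, PSB28, PSAD2, PSAE1, PSAE2, FD2, FNR1 and FNR2. FD1 was uneven within L, at 9070 and 11249 spike-scaled CPM in replicates 1 and 2 and 3428, 5530.1 and 2354 in replicates 3 to 5.

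**Figure D3:**
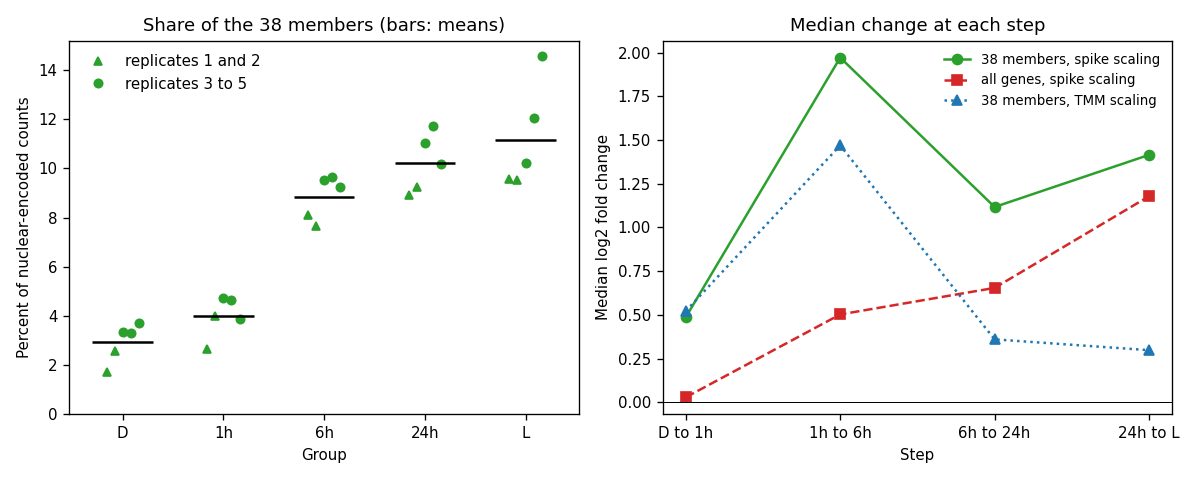
Left, the summed counts of the 38 genes as a percentage of nuclear-encoded counts in each library, with triangles for replicates 1 and 2, circles for replicates 3 to 5 and bars for means; right, the median log2 fold change at each step for the 38 genes under spike and TMM scaling and for all genes under spike scaling. The share rises from 2.92% in D to 8.83% in 6h and 11.2% in L, and over all replicates the step from 1h to 6h is the largest on both scales.

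Pairs of paralogs were compared within each library, as the log2 ratio of their counts, which depends on neither depth nor spike-in. There were 9 pairs and 4 comparisons with D, and 16 of the 36 ratios passed an exact permutation test (two-sided) that ran through all assignments of the libraries to groups of 5 and 5. Each of the 16 had an exact permutation p = 0.00794, the smallest that this test can give, an adjusted p = 0.0179 over the 36, and groups that did not overlap. The coding sequences of the pairs are 60.3% to 87% identical, and the longest run of bases shared between their transcripts is 17 to 38. The sources used here do not say how reads that fit both copies were assigned, so all ratios carry that uncertainty. With any 1 library left out, all 16 still had an adjusted p under 0.05. Groups that lie apart stay apart when a library is removed, so that outcome was fixed and adds no evidence. With replicate number as a block, an exact sign-flip permutation test over 5 pairs cannot go below p = 0.0625, so none of the 36 could pass. At 1 h, where the replicate numbers pair the libraries, the ratios of the PSBO, PSAE, PSAH, FD and FNR pairs each had that smallest p, having moved one way in all 5 pairs. At 24 h, where replicate numbers also pair the libraries, the same held for the PSBO, PSAD, PSAE, PSAH, PETE and PGRL1 ratios. It did not hold there for the PSBQ, FD and FNR ratios.

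The PGRL1 pair moved most. PGRL1A had 64.5%, 71.3%, 74.1%, 75.1% and 77.6% of the pair's counts in D, 68.7% to 86.8% in 1h, and 95.4%, 95.0%, 94.5%, 94.2% and 94.7% in 6h. The 5 libraries of 6h lay close together and far above D. The ratio was 6.83 times that of D in 6h, 9.10 times in 24h and 10.8 times in L, with log2 differences of 2.77 ± 0.17, 3.19 ± 0.20 and 3.43 ± 0.24 (SE). At 1 h the difference was 0.40 ± 0.30 (exact permutation p = 0.23, adjusted p = 0.319). Within replicates 1 and 2 the 6h difference was 3.22, and within replicates 3 to 5 it was 2.47.

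Among the oxygen-evolving subunits the PSBO pair changed and the PSBQ pair gave no passing result. PSBO1 counts were 21.6, 11.9, 14.5, 9.36 and 9.76 times those of PSBO2 in D and 2.53, 2.99, 2.86, 3.16 and 3.0 times in 6h. The ratio was lower in every 6h library than in any D library, with a log2 difference of -2.14 ± 0.23, and it was -1.84 in 24h and -1.98 in L. At 1 h the difference was -0.76 ± 0.31 (exact permutation p = 0.0317, adjusted p = 0.0571). For PSBQ1 and PSBQ2 the differences lay between 0.02 and 0.28 (adjusted p from 0.392 to 0.944). The PSBQ difference in L was 0.78 within replicates 1 and 2 and -0.05 within replicates 3 to 5.

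In photosystem I the PSAH pair changed its ratio. PSAH1 counts were 3.18, 2.46, 2.43, 1.5 and 1.42 times those of PSAH2 in D, 1.38, 1.23, 1.33, 0.734 and 1.14 times in 1h, and 0.405, 0.496, 0.531, 0.446 and 0.427 times in 6h. The count ratio was above 1 in all D libraries and below 1 in all 6h, 24h (0.723 to 0.758) and L (0.543 to 0.722) libraries. Counts are not corrected for length, and per kb PSAH1 held 95.9, 185, 500.07, 620.2 and 607 spike-scaled CPM per kb in D and PSAH2 55.8, 139.5, 381, 765 and 793. On that scale PSAH1 was the higher in D replicates 1 to 3 and PSAH2 in 4 and 5. Which gene led in D thus depended on the unit and on the transcript lengths used, while the change in the ratio did not. The log2 differences from D were -0.88 ± 0.28 in 1h, -2.19 ± 0.24 in 6h, -1.51 ± 0.23 in 24h and -1.68 ± 0.24 in L. The PSAH and FD pairs passed at 1 h, and for PSAH the difference was -1.10 within replicates 1 and 2 and -0.74 within replicates 3 to 5. The PSAE pair went from ratios of 0.514, 0.712, 1.17, 2.24 and 2.31 in D to 3.55, 3.08, 4.87, 4.66 and 5.49 in 6h, and its log2 differences were 1.85 ± 0.46, 1.82 ± 0.47 and 2.07 ± 0.45 in 6h, 24h and L. The D libraries were spread widely, those of replicates 1 and 2 lowest. The 6h difference was 2.45 within replicates 1 and 2 and 1.46 within replicates 3 to 5. For PSAD1 and PSAD2 the 4 differences lay between -0.31 and -0.14 (adjusted p from 0.199 to 0.58). The 24h difference, -0.27, went one way in all 5 pairs of like-numbered libraries (exact sign-flip permutation p = 0.0625, the smallest possible). In L the PSAD difference was 0.03 within replicates 1 and 2 and -0.30 within replicates 3 to 5. Part of the reads of PSAD2 may lie in an entry merged with a neighbour, which held 91 to 372 counts per library.

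Among the carriers, PETE1 made up 6.63% to 10.2% of plastocyanin counts in D and 2.43% to 5.99% in L, a log2 difference of -1.26 ± 0.32, and it was -0.92 ± 0.15 in 24h. At 6 h the difference was -0.64 ± 0.24 (exact permutation p = 0.0238, adjusted p = 0.0504). FD1 made up 24.8%, 20.8%, 25.1%, 19.3% and 20.9% of the counts of the 2 ferredoxins in D and 28.2%, 26.8%, 30.1%, 27.8% and 32.1% in 1h. Every 1h library was above every D library, with a log2 difference of 0.52 ± 0.12. At 6 h and 24 h the estimates had the opposite sign, -0.41 ± 0.14 and -0.74 ± 0.22 (adjusted p = 0.0571 for each, exact permutation test). In L the share of FD1 ran from 11.6% to 38.3%, with replicates 1 and 2 at 38.3% and 35.5%. No FNR ratio passed, the estimates running from -0.70 in 1h to 0.29 in L (adjusted p from 0.109 to 0.552).

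**Figure D4:**
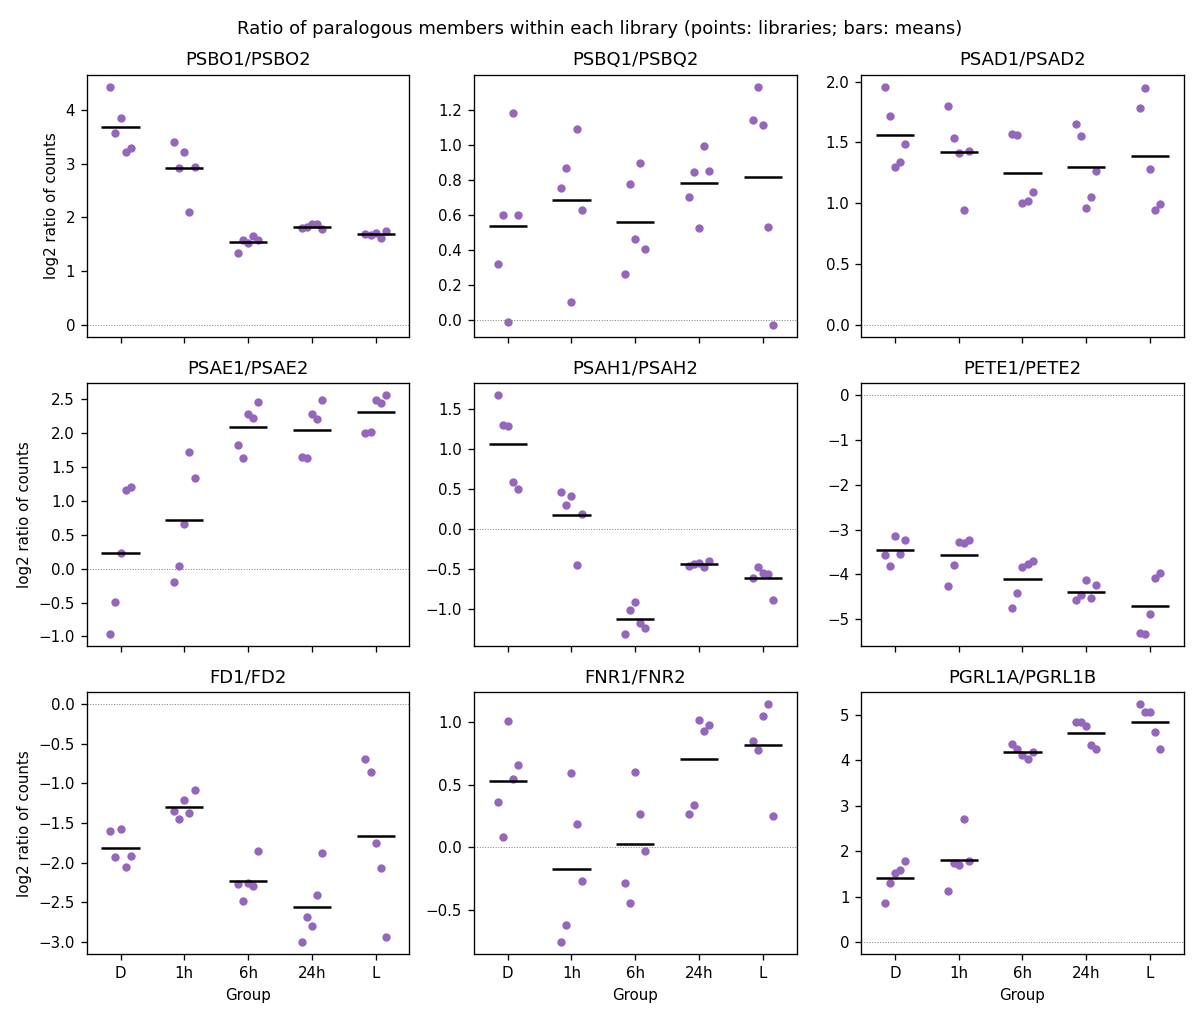
Log2 ratio of the counts of the 2 genes of each of 9 paralog pairs (y axis) in each library, by group; points are libraries, bars are means and the dotted line marks equal counts. The PSAH1 to PSAH2 ratio of counts, not corrected for length, goes from a mean of 1.07 in D to -1.12 in 6h, and the PGRL1A to PGRL1B ratio goes from 1.42 to 4.19.

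Subunits of photosystem I, with PSAP counted among them, lay closer to each other in L than in D. With paralogs summed, the SD of log2 spike-scaled CPM per kb among its 10 measured subunits was 0.94 on average in D (0.76 to 1.05 over 5 libraries), 0.80 in 1h, 0.86 in 6h, 0.61 in 24h (0.44 to 0.77) and 0.54 in L (0.34 to 0.70). That SD in L was 0.34 in each of replicates 1 and 2 and 0.63 to 0.70 in replicates 3 to 5. The highest subunit stood 5.35 to 9.58 times above the lowest in D and 2.22 to 5.58 times in L. Among the 10 measured photosystem II proteins the SD was 1.60 in D (1.52 to 1.75), 1.25 in 1h and 1.47 in L (1.30 to 1.69). These spreads are descriptions and were not tested.

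Other nuclear genes of the same machinery were measured alongside. Of 40 further genes tested for other subunits, assembly factors and regulators of these complexes, 1 (2.5%) was called higher in 1h, 18 (45%) in 6h, 34 (85%) in 24h and 39 (97.5%) in L, beside 3.06%, 21.4%, 50.3% and 84.9% of all genes tested, and none was called lower in these 4 comparisons. Their median log2 fold changes were 0.22, 1.21, 2.39 and 3.33. The gene that passed at 1 h was HCF173, which is needed for translation of the message for the D1 reaction centre protein. It measured 11.4 ± 7.74 spike-scaled CPM in D, 84.6 ± 55.6 in 1h and 119.9 ± 45.4 in 6h, with log2 fold changes of 2.90 ± 0.55 (adjusted p = 0.000713) and 3.40 ± 0.56 (adjusted p = 2.31e-05). At 6 h it was followed by PSBS, which dissipates excess light energy (2.98 ± 0.57, adjusted p = 0.000178), and LQY1, a factor in photosystem II repair (2.81 ± 0.52, adjusted p = 0.000113). The 3 lowest estimates at 6 h did not pass. They were -0.76 ± 0.50 for RFNR1, the root type of ferredoxin-NADP reductase (adjusted p = 0.258), -0.70 ± 0.45 for ATPC2, a second gamma subunit gene (adjusted p = 0.253), and -0.40 ± 0.47 for NDHO, a subunit of the NDH complex (adjusted p = 0.558). RFNR1 was the gene that did not pass in L, at 30.2 ± 8.60 against 18.7 ± 13.5 in D (adjusted p = 0.188).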

How the data were processed

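Arabidopsis cotyledon RNA was sequenced as stranded paired-end libraries, 25 in 5 groups of 5. The deposited values are whole-number counts per gene, and Drosophila genes stand in the same table. Tools listed in the submitters' processing notes are HTSeq, Salmon 1.9.0 and R 4.3.2, with the build TAIR10 and no roles. The sources used here do not give the annotation. Counts from Salmon would be estimates rounded by the authors. Entries that name a gene of neither species were not used (0.119% to 0.741% per library). No 2 libraries were identical.

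Each library size was its sum of Drosophila counts, brought to the scale of the Arabidopsis totals by their geometric means. Genes passing filterByExpr on unscaled library sizes (minimum count 10, minimum total 15) went into 1 fit of all libraries with edgeR 4.0.16 (quasi-likelihood test, R 4.3.3), and p-values were adjusted over 20615 genes by Benjamini-Hochberg, with 0.05 as the limit of a call. The fit had 16.3 prior degrees of freedom, and its common biological coefficient of variation came to 0.565. The 7 comparisons were 1h, 6h, 24h and L against D and the 3 steps after 1 h. Comparisons with D share its libraries. Paralog ratios used counts plus 0.5. TMM and DESeq2 1.42.0 were among the alternatives, and scripts were tested on simulated data. Levels per kb used the longest annotated transcript of each gene in the TAIR10.1 annotation, which also gave symbols and gene starts, by gene identifier.

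The genes, lists and tests were chosen with earlier results of these data known. Genes given full values are, for each role, the largest and smallest change in 6h against D, the 2 highest levels per kb in L, pairs with a passing or the largest ratio change, and genes that went against the rest or fell; of the related genes, the 3 largest and 3 smallest changes in 6h. The split of replicates follows the plastid share, not a label. Replicate numbers were taken to pair samples where all 5 correlations of like-numbered deviations from the group means passed 0.1: 1h against D (0.14 to 0.79), 24h against D (0.31 to 0.54), 6h against 1h (0.38 to 0.61) and 24h against 6h (0.33 to 0.62). The lowest was 0.09 in 6h against D, 0.0031 in L against D and 0.01 in L against 24h.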

Additional observations from a re-analysis of the deposited data

Results flagged for a closer look

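In 3 of the 150 sets of 5 libraries examined, 1 library lay far from the other 4, by a gap above 0.71 of the whole range, and chance flags about 1 in 20. All 3 were replicate 2 of 1h. FNR2 measured 310.59 spike-scaled CPM there and 45.9 to 119 in the other 1h libraries. ATPG measured 685.928 there and 196 to 332 in the others. PGRL1B measured 37.0197 there and 8.86 to 13.6 in the others. In the share of nuclear counts held by the 38 genes that library was not apart, at 4.01%.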

How the results depend on the processing

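The number of genes that passed against D stayed within 1.5 times under every alternative run in 6h, 24h and L. Leaving out 1 library gave 33 to 35, 37 to 38 and 38 to 38. The shares of all genes called higher then ran from 14.4% to 27.5%, 39.5% to 56.2% and 81.2% to 86.3%. Percentages in brackets below are such shares. In 1h the number was 0 to 0 without 1 library (1.82% to 3.3%) and 12 under TMM (8.94%). It was 14 under DESeq2 with median-ratio factors (9.71%) and 9 in replicates 1 and 2 alone (8.31%). For 6h against 1h leave-one-out counts ran from 21 (6.43% without 1h replicate 1, 7.1% without 6h replicate 4) to 36 (22%). Replicates 1 and 2 alone gave 1 (3.02%). Leave-one-out counts for 24h against 6h ran from 0 (2.8% and 3.17%) to 7 (9.32%). Under TMM that comparison gave 9 (9.54%). DESeq2 gave 7 with Drosophila factors (7.52%) and 10 with median-ratio factors (11.2%). The count was 15 with the 2 groups alone (19.1%) and 13 with the replicate block (18.7%). A term for the replicate split gave 7 (8.46%), replicates 1 and 2 gave 0 (1.2%) and replicates 3 to 5 gave 6 (5.95%). Leave-one-out counts for L against 24h ran from 2 (16.4%) to 35 (58.9%). The count was 0 under TMM (5.98%), 6 under TMM over Drosophila genes (24.6%) and 1 with median-ratio factors (8.05%). Replicates 3 to 5 gave 0 (1.53%). Of the 36 paralog ratios, 16 passed with either other pseudocount or with merged entries added, and 16 to 17 without 1 D library; leaving out a library of another group refits the 9 ratios of its comparison, of which 2 to 6 passed. The 16 could not be lost by leaving out a library, since groups that lie apart stay apart. None passed with the replicate block, in replicates 1 and 2 or in replicates 3 to 5, where the smallest p these tests can give is 0.0625, 0.333 and 0.1. The replicate block left 0 of 38 genes called in 1h (3.47%), 38 in 24h (59%) and 34 in 6h against 1h (24%). In the unpaired comparisons it gave 35 in 6h (28.2%), 38 in L (86.4%) and 36 in L against 24h (70.2%).

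Among the genes given full values, signs turned for estimates that had not passed. In 1h against D only FD1 and PSB28 were checked, so the list below leaves out other changes of sign there. In that comparison the median log2 fold change of all the genes described here was 0.49 over all replicates and -0.14 in replicates 3 to 5. PSAG, negative there with spike scaling, was 0.07 under TMM. Under TMM and DESeq2 median-ratio factors, L against 24h was -0.30 and -0.30 for PSB28, -0.13 and -0.13 for PSAE2, -0.35 and -0.35 for FD2, and -0.10 and -0.10 for FNR2. In 24h against 6h, PETE1 was -0.15 and -0.15 and FD1 -0.19 and -0.18, with -0.021 in replicates 1 and 2. PGRL1B in 6h against D was -0.38 and -0.38, -0.22 in replicates 3 to 5 and -0.023 without D replicate 1 (-0.023 to 0.43 without 1 library). In 6h against 1h it was 0.30 in replicates 3 to 5 and 0.30 without 1h replicate 2 (-0.39 to 0.30 without 1 library). The cause of these changes was not tested. The 5 libraries a group and a coefficient of variation of 0.565 limit what changes near 1 on the log2 scale can show.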
